A study of Mus musculus with 3 samples.

Results

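Genes of acyl-CoA activation, acyl-CoA hydrolysis, carnitine transfer and beta-oxidation were examined in mouse kidney after prolonged oral acetate. They were taken by gene name: the Acss, Acsl, Acsm, Acsf, Acot, Acad, Acox, Acaa, Acat, Ech, Eci and Cpt families, the Hadh subunit genes, and Ehhadh, Crat and Crot. The rule found 96 of 45101 probe sets, which belong to 58 genes, and 55 of these genes had at least 1 probe set among those tested. Acoxl, Acot5 and Acsl6 had none, and Acss3 is not analysed here. Cptp matched by its letters alone, since it encodes a ceramide phosphate transfer protein, and it was counted but put in no class.

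The data are 3 single-colour arrays, 1 per mouse, from kidney tissue of C57BL/6 animals. The 2 acetate-fed mice drank water with 200 mM acetate for 6 weeks from 3 weeks of age. The control is 1 mouse of the same strain and of the same starting age of 3 weeks, whose agent is labelled control. What the control drank, and for how many weeks, is not given in the sources used here. Each value below is a deposited log2 expression value, so a difference of 1 is a 2-fold difference, and acetate-fed means carry the SD of n = 2 mice. The lone control has no error of its own, and differences from it in the 2 mice share that array.

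Fatty acids enter metabolism as acyl-CoA esters. Synthetases make them, thioesterases split them again, and the carnitine system carries long-chain acyl groups into mitochondria. Mitochondria and peroxisomes then shorten the chain in repeated rounds of dehydrogenation or oxidation, hydration, a second dehydrogenation and thiolysis. The proximal tubule draws most of its energy from this pathway and is rich in both organelles.

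Kidney identity was clear on every array, with uromodulin (Umod) at 13.67 and 13.64 in acetate-fed mice and 13.53 in the control. Fat genes marked the control array: Adipoq, the adipocyte hormone adiponectin, was 4.38 and 3.87 in acetate-fed mice and 9.98 in the control, and the brown fat gene Ucp1 was 4.50 and 4.70 in acetate-fed mice and 8.53 in the control. Not all brown fat genes were lower: Dio2 was 5.52-fold and 1.56-fold higher in acetate-fed mice, and Cox7a1 was 8.17 and 9.08 in acetate-fed mice and 8.55 in the control. The summed linear signal of 8 tested white fat genes was 0.361 and 0.410 times the control in acetate-fed mice 1 and 2, that of 7 brown fat genes 0.345 and 0.480 times, and that of 12 proximal tubule genes 0.862 and 0.763 times. Macrophage genes went the other way, with a summed signal 3.80 and 2.05 times the control over 9 genes. Lep was not among the tested white fat genes, and Elovl3 and Otop1 not among the brown. The 4 tested skeletal muscle genes had the same value on all 3 arrays. In bulk tissue, fewer cells of a type and less RNA per cell cannot be told apart. The part of fat, proximal tubule and macrophage RNA in the results below was not tested.

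Acetate-fed kidneys had lower values than the control kidney for most genes of the set. Of 55 tested genes, 44 were lower in both mice, 4 were higher in both (Acsl4, Acsl5, Acot9 and Acss1), 3 had the same value on all 3 arrays (Acaa1a, Acsf2 and Acsm2) and 4 did neither. Among all 13473 tested genes, 30.9% were lower and 26.0% higher in both mice, and among the 2128 genes at or above the set's median mean value of 9.36 those shares were 39.2% and 30.8%. The set's median difference was -0.25, with -0.28 in acetate-fed mouse 1 and -0.20 in mouse 2. It was 0 over all tested genes and -0.01 over those 2128 genes, which are brighter than the set (median level of 10.34). In 30 genes of the set the control lay above both mice by more than the mice lay apart, a pattern found in 21.5% of all tested genes. In 3 genes (Acsl4, Acsl5 and Acot9) the control lay below both mice by more than that gap, against 17.1% of all tested genes.

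The shifts were small for most genes. Of the 55, 6 were at least 1.5-fold lower in both mice: Eci3, Ehhadh, Acsm3, Acot3, Acot12 and Eci1. The share was 1.60% among all tested genes and 1.83% among those at or above the set's median level. No gene of the set was at least 1.5-fold higher in both, against 1.75% of all tested genes. Taking acetate-fed mouse 1 by itself, 7 genes were at least 1.5-fold lower, and taking mouse 2 by itself, 12 were. A rule on 1 mouse is looser, and its share over all tested genes is not given here, so these 2 counts have no background. No gene of the set was 2-fold lower in both. Eci1 stood just inside the threshold, with differences of -0.68 and -0.59 on the log2 scale, while Acot6 (1.48-fold and 1.60-fold) and Acsm1 (1.45-fold and 2.15-fold) stood just outside.

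**Figure D1:**
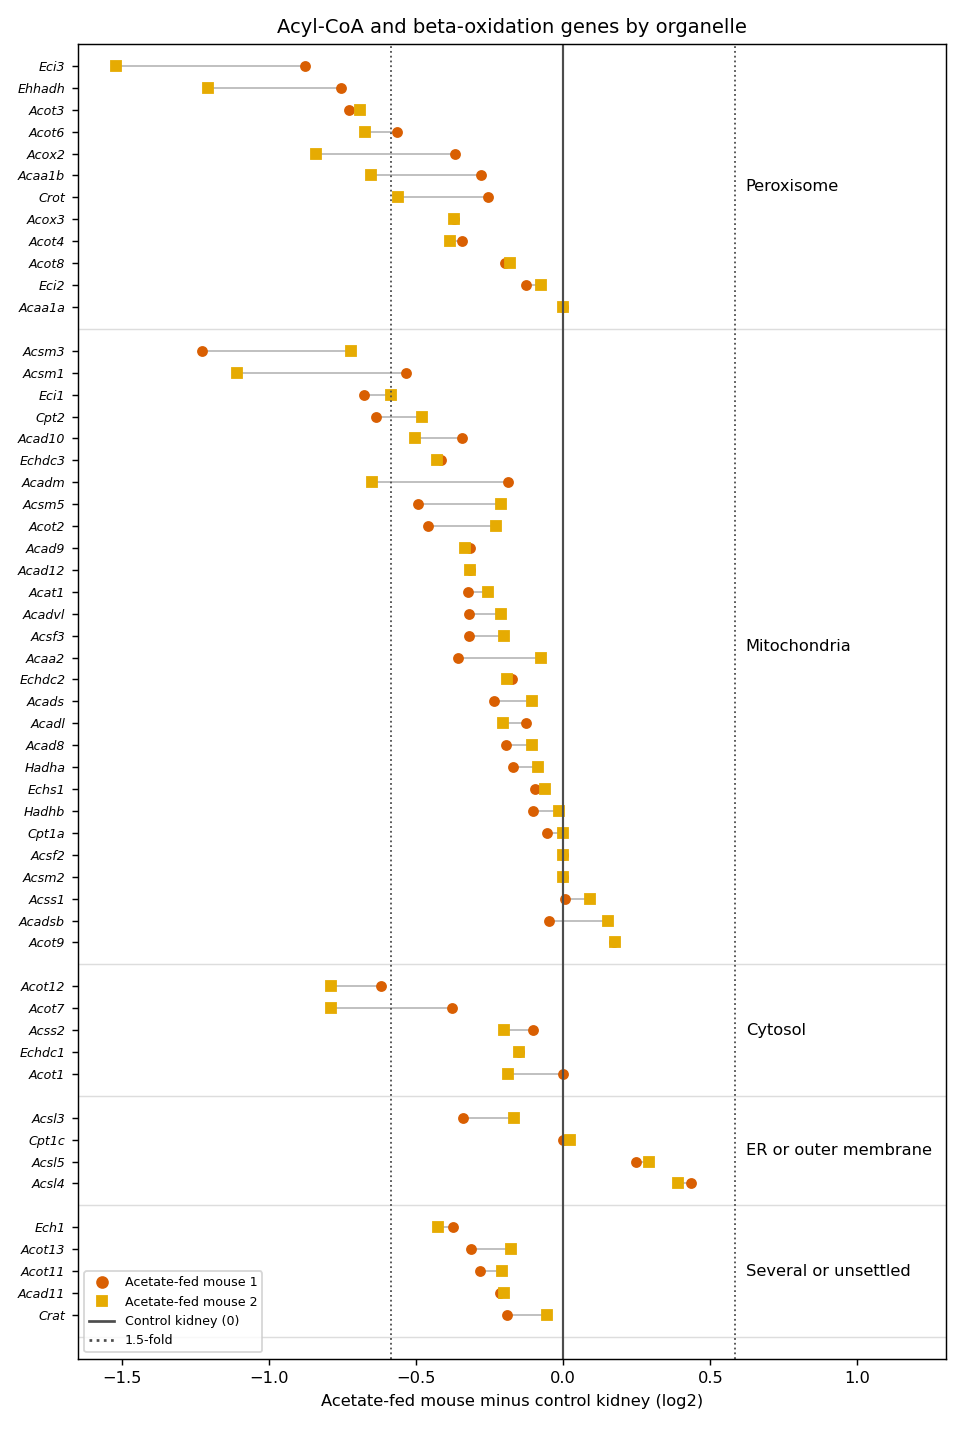
Difference of each acetate-fed mouse from the control kidney (log2) for the 54 tested genes with an organelle class, grouped by organelle; circles are acetate-fed mouse 1, squares mouse 2, the solid line is the control and dotted lines mark 1.5-fold. Of 12 peroxisomal genes 11 lie left of the control in both mice, while Acsl4 and Acsl5 lie right of it.

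By limma's moderated test, with Benjamini-Hochberg adjustment over 27022 probe sets, 4 of the 55 genes passed. Acad12 (adjusted p = 0.0114) and Echdc1 (adjusted p = 0.033) fell, and Acot9 rose (adjusted p = 0.0427). Acox3 was lower by its representative probe set (adjusted p = 0.00906) but higher by a second one, as given with the oxidases. In all tested genes 4.92% passed as lower and 3.97% as higher, so the share in the set lay near the background. Acox3, Acad12 and Echdc1 had exactly equal values in the 2 acetate-fed mice, which leaves them no spread of their own, and the called differences reached at most 0.37 in size. No probe set on the whole array passed after quantile normalization, after median centring or when the upper 40% of probe sets were tested, so all 4 calls were lost there. With tied acetate-fed values left out, 16 of 51 genes of the set passed as lower and 0 as higher, against 5.60% and 6.14% of all genes so tested. None of the 4 calls above recurred there: Acox3, Acad12 and Echdc1 were left out as tied, and Acot9 no longer passed. On simulated arrays of this design, which held no tied values, limma made more false calls than its nominal rate. In these data 33.7% of tested probe sets are tied between the acetate-fed mice, which the simulation does not cover. The rate of false calls here is therefore unknown, which limits every adjusted p given. With all tested probe sets, none of the 6 genes with the larger differences passed (limma adjusted p between 0.0759 for Acot3 and 0.543 for Eci3).

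By the mean over both mice on representative probe sets, Eci3 (-1.20) and Ehhadh (-0.98) lay farthest below the control, with Acsm3 (-0.97) next. In mouse 1 alone Acsm3 lay farthest. Eci3, a peroxisomal enoyl-CoA isomerase used for unsaturated fatty acids, was 10.77 and 10.13 in acetate-fed mice and 11.65 in the control. It averaged 10.45 ± 0.45 in acetate-fed mice, which is 1.84-fold lower in mouse 1 and 2.87-fold lower in mouse 2. Both mice lay below the control, and the gap between them (0.64) was smaller than the gap of either to the control. Ehhadh, the peroxisomal bifunctional enzyme that hydrates and then dehydrogenates the chain, was 10.59 and 10.14 in acetate-fed mice and 11.35 in the control, 1.69-fold and 2.31-fold lower. Acot12, the cytosolic thioesterase that releases acetate from acetyl-CoA, was 8.48 and 8.31 in acetate-fed mice and 9.10 in the control, 1.54-fold and 1.73-fold lower. A second Acot12 probe set was lower still, at 7.23 and 7.20 in acetate-fed mice and 8.22 in the control, and passed limma's test (adjusted p = 0.0361). Promoters of these 3 genes, the 250 bases before the start site in RefSeq's GRCm38.p6, are shown for the pair with the lowest mean differences and for Acot12, which is low by 2 probe sets. Capitals mark matches on either strand to the GC box GGGCGG, the CCAAT box and the nuclear receptor half-site AGGTCA.
Eci3 (chr13:34963810-34964059, minus strand): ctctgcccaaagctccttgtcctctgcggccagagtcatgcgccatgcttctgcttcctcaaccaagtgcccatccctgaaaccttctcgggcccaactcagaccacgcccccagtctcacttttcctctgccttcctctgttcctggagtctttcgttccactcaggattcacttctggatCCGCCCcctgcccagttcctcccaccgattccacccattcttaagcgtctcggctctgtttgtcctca
Ehhadh (chr16:21787835-21788084, minus strand): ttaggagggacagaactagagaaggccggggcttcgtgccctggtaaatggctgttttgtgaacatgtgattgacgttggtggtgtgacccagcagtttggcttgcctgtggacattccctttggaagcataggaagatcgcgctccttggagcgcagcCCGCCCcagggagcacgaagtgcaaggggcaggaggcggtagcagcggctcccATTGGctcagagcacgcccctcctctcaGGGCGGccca
Acot12 (chr13:91741271-91741520, plus strand): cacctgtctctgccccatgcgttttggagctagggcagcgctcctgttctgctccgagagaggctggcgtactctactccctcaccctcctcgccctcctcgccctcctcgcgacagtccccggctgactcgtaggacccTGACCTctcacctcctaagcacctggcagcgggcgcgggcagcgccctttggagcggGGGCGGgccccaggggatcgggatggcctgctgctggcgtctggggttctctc

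Eci3 held 1 GC box, Ehhadh 2 GC boxes and 1 CCAAT box, and Acot12 1 GC box and 1 half-site, with no overlap between matches. RefSeq promoters were found for 49 of the 55 genes (54 entries). A GC box stood in 61.1% of the set's entries and in 32.7% of all 32851 promoter entries, and a CCAAT box in 51.9% and 33.8%. The TATA box letters TATAAA were found in 5.56% of the set's entries and 12.4% of all, and the single half-site AGGTCA in 16.7% and 14.0%. The DR1 element, a spaced pair of half-sites that PPAR alpha and HNF4 alpha recognise, was found in 0 of 54 entries of the set and in 0.338% of all promoter entries. With so low a share over all entries, 0 of 54 says little about the set. Sites outside the 250 bases before the start were not searched.

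**Figure D2:**
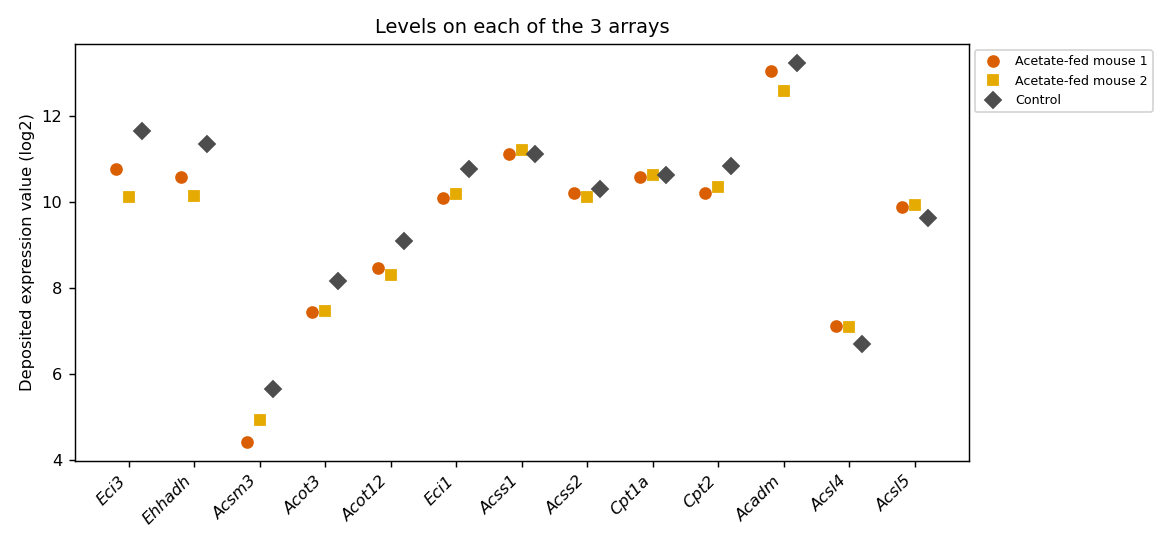
Deposited log2 expression value on each array for 13 genes; circles are acetate-fed mouse 1, squares acetate-fed mouse 2 and diamonds the control. For the first 6 genes both acetate-fed mice lie at least 1.5-fold below the control, Acss1 and Cpt1a lie close to it, and Acsl4 and Acsl5 lie above it.

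The enzymes that activate acetate itself differed little from the control. Acss1, the mitochondrial acetyl-CoA synthetase, was 11.12 and 11.21 in acetate-fed mice and 11.11 in the control. Acss2, the cytosolic and nuclear acetyl-CoA synthetase, was 10.22 and 10.12 in acetate-fed mice and 10.32 in the control. The mean difference of Acss1 was 0.05, smaller than the 0.09 between the mice, and its adjusted p was 0.871 by limma. All 3 tested Acss2 probe sets were lower in both mice, with mean differences between -0.21 and -0.02, and the one nearest to 0 passed limma's test with tied acetate-fed values (adjusted p = 0.0342). Both tested probe sets of Acot12, which runs the reverse step, had larger differences (-0.70 and -1.01) than any tested probe set of either synthetase.

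Medium-chain synthetases of the mitochondrial matrix were lower or level. Acsm1, which activates butyrate and other medium-chain acids, was 11.07 and 10.50 in acetate-fed mice and 11.61 in the control. Acsm3, first described in hypertensive rats, was 4.44 and 4.94 in acetate-fed mice and 5.66 in the control, which is 2.34-fold and 1.65-fold lower. These values lie near the lower limit of 4.21 for testing, and the mean difference of Acsm3 was -0.97, or -0.67 with a pseudocount of 16. The mice parted in opposite ways at these genes: Acsm1 was lower in mouse 2 by 0.57, and Acsm3 lower in mouse 1 by 0.51. Acsm5 was 7.54 and 7.82 in acetate-fed mice and 8.04 in the control. Acsm2, a kidney-expressed gene of the same cluster, was 13.14 on all 3 arrays by the probe set that represents it, and its other 3 probe sets had mean differences between -0.34 and -0.08. Acsf2 was 6.87 on all 3 arrays, and Acsf3, the malonyl-CoA synthetase, was 8.46 and 8.58 in acetate-fed mice and 8.78 in the control.

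Long-chain synthetases of the endoplasmic reticulum and outer mitochondrial membrane included the genes of the set with the largest positive differences. Acsl4, which prefers arachidonate, was 7.14 and 7.09 in acetate-fed mice and 6.70 in the control, 1.35-fold and 1.31-fold higher. Each of its 3 tested probe sets was higher in both mice, with mean differences between 0.22 and 0.41. Acsl5 was 9.89 and 9.93 in acetate-fed mice and 9.64 in the control, 1.19-fold and 1.22-fold higher. Acsl3, found on lipid droplets and the endoplasmic reticulum, was 7.09 and 7.26 in acetate-fed mice and 7.43 in the control. For Acsl4 and Acsl5 the gap to the control was larger than that between the mice (0.05 and 0.04), yet neither passed limma's test (adjusted p = 0.148 and 0.212). Macrophage genes, given above, were also higher in both mice, and their part in these values was not tested.

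Cpt1a, the outer-membrane transferase that limits long-chain entry, was 10.58 and 10.64 in acetate-fed mice and 10.64 in the control. A second Cpt1a probe set had the mice on opposite sides of the control (-0.27 and 0.17). Cpt2, the inner-membrane transferase that returns the acyl group to CoA, was 10.21 and 10.36 in acetate-fed mice and 10.84 in the control, 1.55-fold and 1.40-fold lower. Crot, the peroxisomal medium-chain transferase, was 9.96 and 9.65 in acetate-fed mice and 10.21 in the control. Crat, which moves acetyl groups, was 8.79 and 8.93 in acetate-fed mice and 8.98 in the control. Cpt1c, a neuronal form, was close to the lower limit of tested values at 4.59 and 4.61 in acetate-fed mice and 4.59 in the control. None of these 5 genes passed limma's test by its representative probe set (adjusted p = 0.337 for Cpt2). A dimmer Crat probe set, with tied acetate-fed values and a difference of -0.04, did pass (adjusted p = 0.0236).

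All but 1 of the 10 acyl-CoA dehydrogenases were lower in both mice (30.9% of all tested genes), the exception being Acadsb. The only Acadsb probe set carries a suffix that marks probes that can bind other transcripts. Acadm, the medium-chain enzyme, was 13.05 and 12.59 in acetate-fed mice and 13.24 in the control, with the larger difference in mouse 2 (1.14-fold lower in mouse 1 and 1.57-fold in mouse 2). Acadl, the long-chain enzyme, was 11.06 and 10.98 in acetate-fed mice and 11.19 in the control. Acadvl, the very-long-chain enzyme of the inner membrane, was 11.15 and 11.26 in acetate-fed mice and 11.47 in the control. Acad9, an assembly factor of respiratory complex I with dehydrogenase activity, was lower on all 3 of its probe sets, with mean differences between -0.63 and -0.33. Its representative probe set was 9.18 and 9.17 in acetate-fed mice and 9.50 in the control, and the other 2 passed limma's test with tied acetate-fed values (adjusted p = 0.00906 and 0.0108). Acads, Acad8, Acad10, Acad11 and Acad12 had mean differences between -0.42 and -0.15.

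Peroxisomal beta-oxidation starts with acyl-CoA oxidases. Acox2, which acts on branched chains and bile acid precursors, was 8.94 and 8.47 in acetate-fed mice and 9.31 in the control, 1.29-fold and 1.79-fold lower. Acox3, also for branched chains, was 6.11 in both acetate-fed mice and 6.49 in the control, but a second probe set went the other way, at 4.75 in both acetate-fed mice and 4.64 in the control. Those 2 Acox3 probe sets each passed limma's test in opposite directions, which leaves the direction of this gene unsettled.

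All 10 tested genes classed with the hydratases, isomerases and hydroxyacyl-CoA dehydrogenases had both mice below the control (30.9% of all tested genes). For 3 of them the difference was at least 1.5-fold in both mice (1.60% of all tested genes). This class takes in Echdc1, Echdc2 and Echdc3, which are named for a hydratase domain, and Echdc1 encodes ethylmalonyl-CoA decarboxylase. Eci1, the mitochondrial counterpart of Eci3, was 10.09 and 10.19 in acetate-fed mice and 10.77 in the control. Ech1, a dienoyl-CoA isomerase, was 11.93 and 11.88 in acetate-fed mice and 12.31 in the control. Eci2, the genomic neighbour of Eci3, was 8.96 and 9.01 in acetate-fed mice and 9.08 in the control, a mean difference of -0.10 beside -1.20 for Eci3. The mitochondrial trifunctional protein differed less: Hadha was 10.69 and 10.77 in acetate-fed mice and 10.86 in the control. Hadhb, its thiolase subunit, was 11.54 and 11.63 in acetate-fed mice and 11.64 in the control. Echs1, the short-chain hydratase, had a mean difference of -0.08, and Echdc1, Echdc2 and Echdc3 lay between -0.42 and -0.15.

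Among the thiolases, Acaa1b, a peroxisomal form, was 11.45 and 11.07 in acetate-fed mice and 11.73 in the control. Its near-identical paralog Acaa1a was 8.57 on all 3 arrays, measured by a probe set whose suffix marks probes that can bind other transcripts. The mitochondrial Acaa2 was 11.51 and 11.79 in acetate-fed mice and 11.86 in the control, and Acat1, which forms and splits acetoacetyl-CoA, was 11.84 and 11.91 in acetate-fed mice and 12.16 in the control. All 3 probe sets of each were lower on average.

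Of 11 tested thioesterases, 9 had both mice below the control (30.9% of all tested genes). For 1, Acot9, both lay above (26.0% of all tested genes). Acot3, a peroxisomal long-chain form, was 7.44 and 7.48 in acetate-fed mice and 8.17 in the control, and the mice lay only 0.04 apart. Its probe set carries a suffix for probes shared between related transcripts, and Acot2, Acot1, Acot4, Acot3, Acot5 and Acot6 lie side by side in one cluster. Within that cluster Acot6 was 7.15 and 7.04 in acetate-fed mice and 7.71 in the control, Acot4 had a mean difference of -0.36, the mitochondrial Acot2 one of -0.34 and the cytosolic Acot1 one of -0.09. Acot1 was 7.85 and 7.67 in acetate-fed mice and 7.85 in the control. Outside the cluster, the cytosolic Acot7 was 9.57 and 9.16 in acetate-fed mice and 9.95 in the control. Acot8, Acot11 and Acot13 had mean differences between -0.25 and -0.19, and the mitochondrial Acot9 was 9.11 and 9.12 in acetate-fed mice and 8.94 in the control.

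By organelle, peroxisomal genes lay farthest below the control. Their median difference over 12 genes was -0.44 (-0.36 in acetate-fed mouse 1 and -0.61 in mouse 2), 11 were lower in both mice and 3 of them by at least 1.5-fold. Mitochondrial genes had a median of -0.24 over 28 genes (-0.28 in mouse 1 and -0.20 in mouse 2), with 22 lower and 2 higher in both mice, and 2 at least 1.5-fold lower. With each gene taken as the median of its probe sets, the peroxisomal median was -0.34 and the mitochondrial one -0.21. The 5 cytosolic genes had a median of -0.15, with 4 lower in both. The 4 genes of the endoplasmic reticulum or outer membrane had a median of 0.14, with 2 higher in both, 1 lower and 1 neither; with no filter on low values, which adds Acsl6, that median was 0.011. Beside these counts, 30.9% of all tested genes were lower in both mice, 26.0% higher in both and 1.60% at least 1.5-fold lower in both. The class values are descriptions of uneven lists, and the difference between organelles was not tested.

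**Figure D3:**
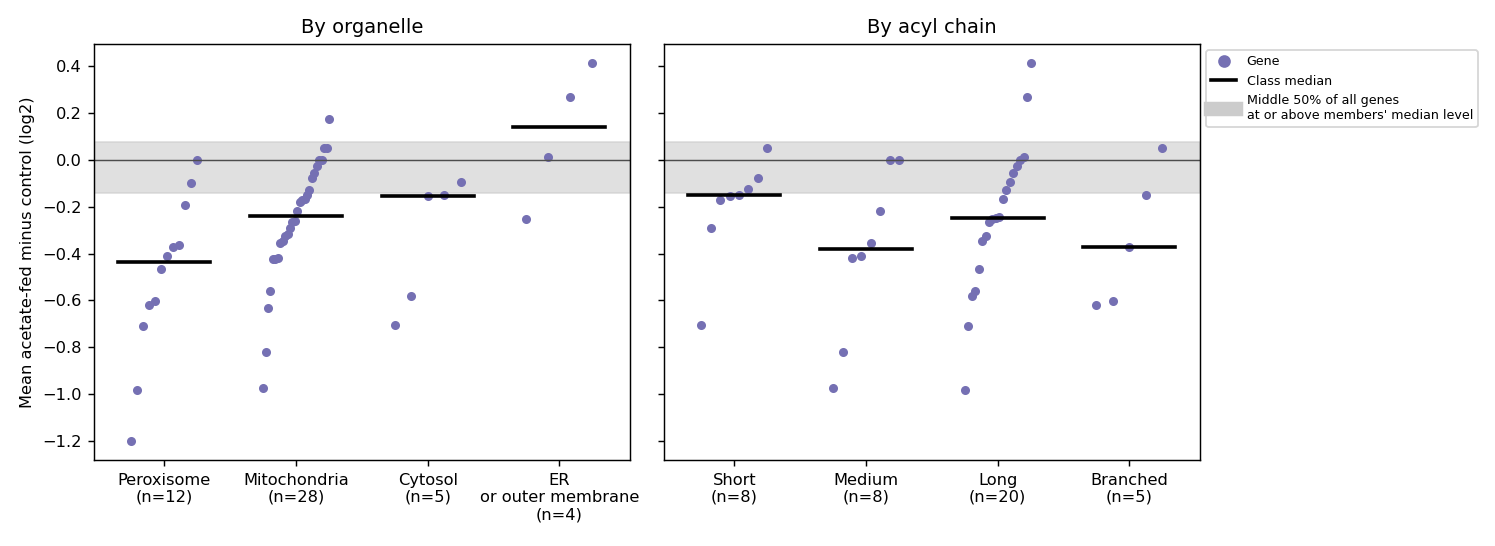
Mean difference of acetate-fed mice from the control (log2) for each tested gene by organelle and by acyl chain; points are genes, black bars class medians, and the grey band the middle 50% of all tested genes at or above the set's median level. Peroxisomal genes have a median of -0.44 and mitochondrial genes one of -0.24, while short-chain genes have one of -0.15.

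By chain length, short-chain genes were nearest to the control. Their median over 8 genes was -0.15, and Acot12 was the 1 gene at least 1.5-fold lower in both mice. Medium-chain genes had a median of -0.38 over 8 genes, long-chain genes one of -0.25 over 20 and branched-chain genes one of -0.37 over 5, which became -0.20 when each gene was the median of its probe sets. Within the long-chain class, the 4 peroxisomal genes had a median of -0.59, the 8 mitochondrial genes one of -0.22 and the 4 membrane genes one of 0.14. Within the branched-chain class, the 3 peroxisomal genes had a median of -0.60 and the 2 mitochondrial genes, Acad8 and Acadsb, one of -0.05.

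The 2 acetate-fed mice were also set against each other, which does not use the control; no test was made of organelles here. Of 28 mitochondrial genes, 18 were lower in mouse 1 than in mouse 2 and 7 higher, with a median of -0.08 for mouse 1 minus mouse 2. Of 12 peroxisomal genes, 7 were higher in mouse 1 and 3 lower, with a median of 0.07, and the largest gaps were at Eci3 (0.64), Acox2 (0.47) and Ehhadh (0.45). Of 5 cytosolic genes, 4 were higher in mouse 1 and 0 lower. Over all tested genes 31.3% were higher in mouse 1, 38.9% lower and 29.9% tied. Mouse 1 also had more macrophage signal and mouse 2 less proximal tubule signal, as given above, and their part was not tested.

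**Figure D4:**
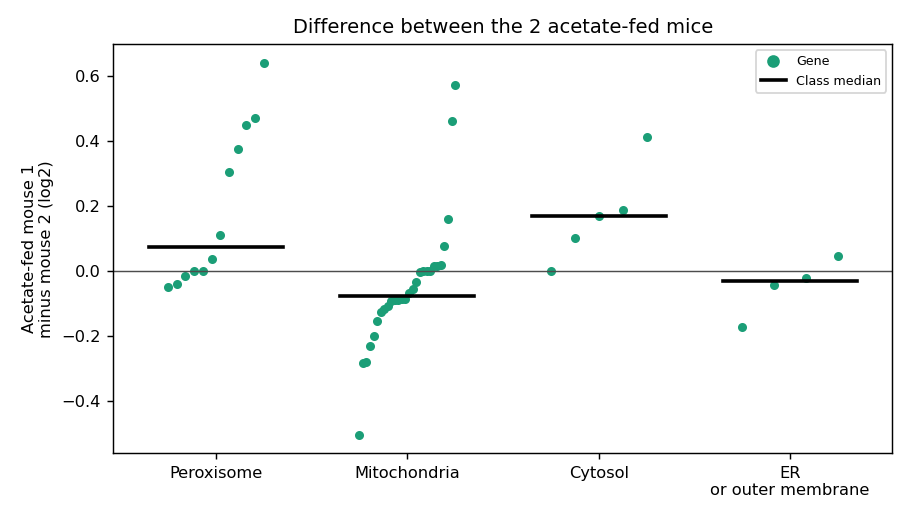
Difference between acetate-fed mouse 1 and mouse 2 (log2) for each tested gene by organelle; points are genes and bars class medians. Peroxisomal genes have a median of 0.07 and mitochondrial genes one of -0.08.

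Partner genes that the naming rule leaves out were lower too. Of 23 tested genes of beta-oxidation, acyl-CoA transport and their control, 20 were lower in both mice (30.9% of all tested genes, and 39.2% of those at or above the set's median level) and 0 higher in both (26.0% and 30.8%), with a median difference of -0.28. Nudt19, a peroxisomal CoA diphosphatase, was 11.53 and 11.36 in acetate-fed mice and 12.14 in the control, the 1 partner at least 1.5-fold lower in both (1.53-fold and 1.72-fold). Abcd3, a peroxisomal acyl-CoA transporter, and Amacr, which prepares branched chains for oxidation, fell by limma's test, by 0.33 and 0.45 on the log2 scale (adjusted p = 0.0285 and 0.0343), beside 4.92% of all tested genes called lower. These calls too were lost in the 3 settings in which no probe set passed. Hadh, the mitochondrial hydroxyacyl-CoA dehydrogenase, was 12.70 and 12.76 in acetate-fed mice and 13.05 in the control. Ppara, the receptor that drives many of these genes, was 9.76 and 9.81 in acetate-fed mice and 9.92 in the control, and its coactivator gene Ppargc1a was 9.68 and 9.75 in acetate-fed mice and 9.73 in the control.

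**Figure D5:**
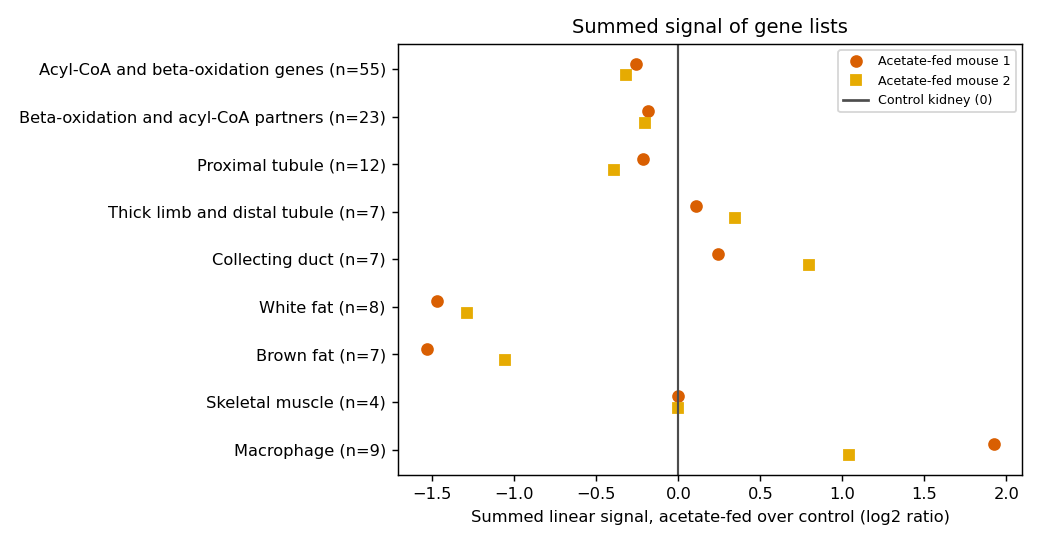
Log2 ratio of the summed linear signal in each acetate-fed mouse over the control for the set, its partner genes and 7 cell type lists; circles are acetate-fed mouse 1, squares mouse 2, and the line at 0 is the control. The set summed to 0.836 and 0.800 times the control, proximal tubule genes to 0.862 and 0.763 times, white fat genes to 0.361 and 0.410 times and macrophage genes to 3.80 and 2.05 times.

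Summed over the set, the linear signal was 0.836 times the control in acetate-fed mouse 1 and 0.800 times in mouse 2. Of 12 proximal tubule genes, 10 had both mice below the control (30.9% of all tested genes, and 39.2% of those at or above the set's median level). Their median difference was -0.27 beside the set's own -0.25. Slc22a6 (2.02-fold and 2.34-fold) and Slc22a8 (1.53-fold and 1.90-fold) were at least 1.5-fold lower in both mice. The largest difference of the list went the other way: Slc7a13 was 4.27-fold and 7.74-fold higher in acetate-fed mice 1 and 2. Slc5a12 was also higher in both, by less. The plot of summed signals shows the set beside these lists, and the brightest genes weigh most in each sum. Thick limb and distal tubule genes summed to 1.08 and 1.27 times the control, with 5 of 7 higher in both mice and 1, Pvalb, lower in both. Collecting duct genes summed to 1.18 and 1.73 times, with 3 of 7 higher in both. Their median difference was -0.08 in acetate-fed mouse 1 and 0.63 in mouse 2.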

How the data were processed

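The values are log2 expression values deposited by the authors, with nearly equal quartiles on the 3 arrays (medians of 4.94 and 4.93 in acetate-fed mice and 4.91 in the control). The submitters' processing notes name MAS5 as a tool. The summary step behind the log2 scale is not given in the sources used here. Among deposited probe sets, 30.0% hold the same value on all 3 arrays and 44.9% are tied between the acetate-fed mice. No scanner file was used, so signal over background and saturation cannot be stated. Precision is limited by there being 3 arrays.

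Probe sets were named by the platform annotation; all 58 member symbols matched RefSeq by Entrez identifier, and 932 probe sets with several symbols were left unnamed. The 64 control probe sets were left out. The upper 60% by mean over the arrays (27022 probe sets, mean of at least 4.21) were tested by limma 3.58.1 in R 4.3.3. The fit used lmFit and eBayes with an intensity trend, 1 residual degree of freedom and Benjamini-Hochberg adjustment at 0.05. On simulated data without tied values it recovered large shifts, with more false calls than the nominal rate. The spread of the acetate-fed pair stands for that of the single control. Each gene is represented by the tested probe set of highest mean. Further tools were Python 3.11.15, pandas 2.3.3 and, for plots, matplotlib 3.10.9. Replicates are separate mice by their labels.

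Chain length and organelle were assigned from general knowledge of each enzyme, and genes with several or unsettled assignments were kept apart. The members, classes and lists were chosen with earlier results of these data known. By rule, values are given for each gene at least 1.5-fold from the control in both mice or 2-fold in 1, for a fixed list (Acss1, Acss2, Acot12, Cpt1a, Cpt2, Acadm, Acadl, Acadvl, Ehhadh, Hadha, Hadhb, Crat and Crot) and for genes whose probe sets go in opposite directions by 0.3 or more. Values of other genes were added after they were seen, to complete each family. Alternatives tried were the filter, normalization, pseudocount, probe set summary, fold threshold, intensity trend, tied pairs left out and each mouse left out.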

Additional observations from a re-analysis of the deposited data

How the results depend on the processing

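No paired analysis was possible, since the labels pair no mice across the groups and there was 1 control mouse. Leaving out 1 acetate-fed mouse gave 7 to 12 genes at least 1.5-fold lower, medians from -0.37 to -0.37 for branched-chain, -0.39 to -0.31 for medium-chain and -0.20 to -0.15 for cytosolic genes; it leaves no residual degree of freedom, so limma was not run. The counts from 1 mouse have no share over all tested genes beside them. At 2-fold, 0 genes were lower in both mice. The branched-chain median was -0.40 after quantile normalization, -0.40 after median centring, -0.31 with a pseudocount of 16 and -0.20 with the median of a gene's probe sets, which also gave -0.28 for medium-chain and -0.21 for cytosolic genes. The membrane median was 0.011 with no filter, 0.27 in the upper 40% of probe sets and 0.12 after median centring. Limma called 0 genes of the set in the upper 40% of probe sets, after quantile normalization or after median centring (16, 18 and 19 at an unadjusted p under 0.05), and 16, all lower, with tied pairs left out (5.60% of all genes so tested were lower). In the 3 settings with 0 calls, no probe set on the array passed. With no filter it called 5, and with the pseudocount or without the intensity trend 4. The count of genes at least 1.5-fold lower in both mice lay between 4 and 7 under the other filters, normalizations and summaries run. The cause of these shifts was not tested.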
